A study of Mus musculus with 31 samples.

Results

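The 9 genes described here, Igf1r, Insr, Tgfbr1, Irs2, Akt2, Nras, Ccnd1, Myc and Igf2bp2, are widely described as targets of the let-7 microRNAs and act in insulin, IGF and growth signalling. They were chosen by name, and all 9 were found in the liver table of 13677 genes and in the epididymal white adipose tissue (eWAT, the fat pad beside the epididymis) table of 15987 genes. RNA was sequenced from wild-type C57BL/6 male F1 mice, and the question was whether the diet arm of the line goes with the offspring's transcripts. The HFLF arm (tag HFLFD) had 6 livers and 6 fat pads, the HF arm (tag HFD) 5 livers and 6 fat pads, and the LF arm (tag LFD) 4 livers and 4 fat pads. All groups shared one feeding: chow from weaning, then LFD from 6 weeks of age for 18 weeks, with tissues taken at 24 weeks. Since that feeding was shared, the diet tag is read here as the diet history of the fathers' line, from the wording of the series title, and the labels do not state it. No label says whether animals of an arm came from separate litters or fathers, so the p-values measure the spread between these animals.

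let-7 is a family of microRNAs found in many animals, abundant in differentiated adult tissues and scarce in embryonic cells. A let-7 molecule guides an Argonaute protein to messenger RNAs whose 3′ untranslated region (3′ UTR) pairs with its seed, and the paired message is translated less and degraded sooner. In mice, let-7 excess impairs glucose tolerance and the let-7 blocker Lin28 improves it, and the insulin receptor, the IGF1 receptor and Irs2 are among the targets named for that effect. The mature let-7 RNAs themselves are too short for the libraries used, so only their targets, their longer host transcripts and their processing enzymes can be seen here.

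The 9 mature family members listed by RefSeq (GRCm38.p6) are each 22 bases long and share 1 seed, bases 2 to 8, shown in capitals. Members of the family from different genes are set side by side to show that the seed is the same while the 3′ part varies.
mmu-let-7a-5p: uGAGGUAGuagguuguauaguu
mmu-let-7b-5p: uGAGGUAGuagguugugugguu
mmu-let-7d-5p: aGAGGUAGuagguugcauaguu
mmu-let-7i-5p: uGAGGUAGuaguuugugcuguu
mmu-miR-98-5p: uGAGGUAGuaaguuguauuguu

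The letters that pair with this seed were searched, in the sense strand only, in the longest annotated 3′ UTR of each gene (GENCODE M21, build GRCm38). The motifs were CTACCTC (7 letters, pairing with the seed), CTACCTCA (the 8-letter form, with an A after it) and TACCTCA (the shifted 7 letters, counted only outside the 8-letter form). Of the 9 genes, 5 held an 8-letter match, 7 held the 7 or 8 letters and 8 held any of these. One match of each gene that has one is printed below on its own strand, 30 bases each, with the matching letters in capitals, because these are the letters through which let-7 could pair.
Igf1r (chr7:68229107-68229136, plus strand): tgtttttcaaacatttatCTACCTCActct
Insr (chr8:3153194-3153223, minus strand): ccttcttctcagtacagtCTACCTCAgtgt
Tgfbr1 (chr4:47410825-47410854, plus strand): tttaggaggctggttgttCTACCTCActga
Irs2 (chr8:10986524-10986553, minus strand): gtcaaaactaccacagtcCTACCTCAgttc
Igf2bp2 (chr16:22059469-22059498, minus strand): aaaacacacaaataaaagCTACCTCAggtg
Akt2 (chr7:27640292-27640321, plus strand): cagcaggacacgttcctgcCTACCTCtggt
Nras (chr3:103064355-103064384, plus strand): tgagacctcttcagaataaCTACCTCctca
Ccnd1 (chr7:144930594-144930623, minus strand): aacaggttcctgttcacaaTACCTCAtgta

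In all, the 9 genes held 14 matches, of which 5 had 8 letters, 3 had 7 letters and 6 were shifted. Igf1r, with the longest 3′ UTR (7267 bases), held 3. Insr, Tgfbr1, Igf2bp2 and Nras held 2 each. Irs2, Akt2 and Ccnd1 held 1 each, and the Ccnd1 match was of the shifted kind. Myc held none in its 3′ UTR of 466 bases, which says only that these letters are not in that window. Of the 14435 measured genes with an annotated 3′ UTR, 10.4% held the 7 or 8 letters, 3.62% the 8 letters and 16.7% any match, over a median length of 1139 bases. Longer 3′ UTRs hold more matches by length alone: of genes with a 3′ UTR of about the length of that of Igf1r, 56.2% held any match, and of those near Irs2 in length, 25.0% did. Genes are called let-7 targets partly because of these letters, so the count describes the 9 genes and is no result about them.

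**Figure D1:**
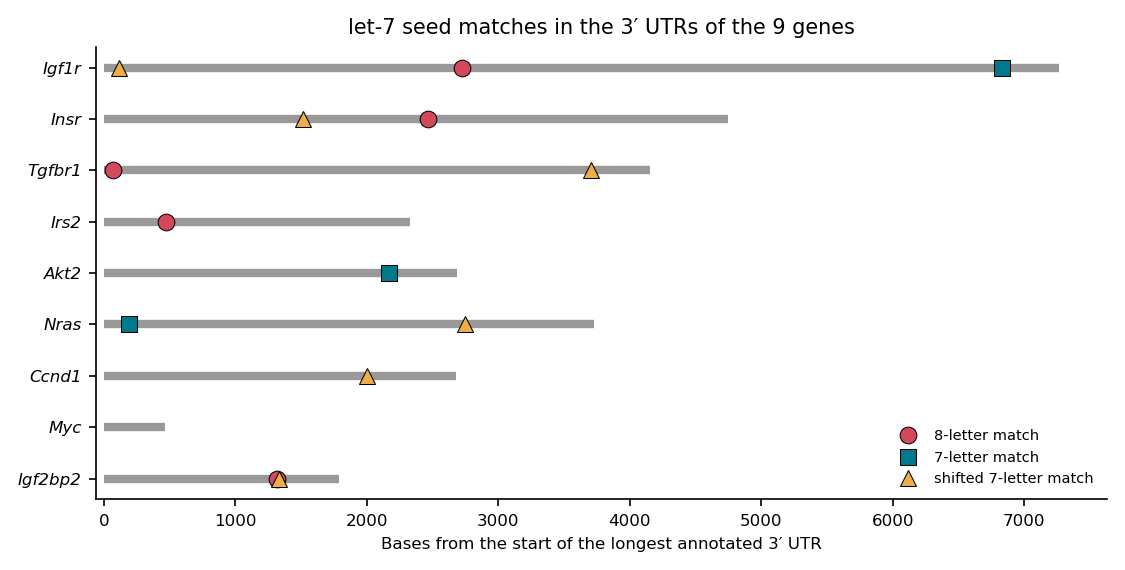
Position of let-7 seed matches (symbols) along the longest annotated 3′ UTR (grey bar) of each gene, in bases from its start. The 3 matches of Igf1r are spread from base 112 to base 6830, the 2 of Igf2bp2 lie side by side at bases 1313 and 1330, and Myc has none.

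The smallest liver library held 9225373 counts and the largest 17268415, while the fat pads lay between 9278083 and 27230205. The tissues carried their own markers. The 6 hepatocyte markers summed to between 76022 and 108159 CPM (counts scaled to the same library total) in liver, against 14.2 to 358 in eWAT. The 6 adipocyte markers summed to between 26839 and 38106 CPM in eWAT, and 3 of them (Adipoq, Plin1 and Lep) were not in the liver table. Some eWAT libraries stood apart. HF 2, HF 6, LF 3 and LF 6 had 76.8, 116, 23.6 and 17.2 CPM of 5 testis markers, against 0.0707 to 3.99 in the rest, and HF 3, HF 5 and LF 2 had 66.6, 151 and 377 CPM of 5 B cell markers, against 7.14 to 22.0 in the rest. Both sets were known from earlier results of these data, and each eWAT comparison was also run without either set. In such bulk tissue, fewer cells of a type and less RNA per cell cannot be told apart.

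Per kilobase of exon, the kinase gene Akt2 was the most abundant of the 9 in both tissues, with 16.4 ± 0.993 CPM per kb in liver and 62.7 ± 10.4 in eWAT (SD, n = 15 and 16). In liver Insr came next (9.61 CPM per kb), then Ccnd1 (5.07), Nras (4.32), Irs2 (4.03), Tgfbr1 (4.01) and Myc (2.69), and far below them Igf2bp2 (0.394) and Igf1r (0.212). Ranges of neighbours overlapped from Insr down to Myc, while Akt2 stood clear above Insr and Myc stood clear above Igf2bp2. Although the Igf2bp2 and Igf1r ranges overlapped, Igf2bp2 was the higher in each of the 15 livers. In eWAT the order after Akt2 was Irs2 (21.7 CPM per kb), Nras (11.7), Insr (8.55), Ccnd1 (6.52), Myc (5.69), Tgfbr1 (4.42), Igf1r (2.16) and Igf2bp2 (1.04). There the ranges of Irs2 and Akt2 did not overlap, nor did those of Tgfbr1 and Igf1r, and all other neighbours overlapped.

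The 2 tissues used these genes differently. Igf1r, the receptor for IGF1, had 2.60 to 4.48 CPM in liver (24 to 70 counts a library), with a median of 3.69, against 28.1 to 45.0 CPM in eWAT, with a median of 37.7. The tissues did not overlap, and eWAT had 10.2 times the mean liver CPM. Per kilobase, Insr was the more abundant of the receptor pair in both tissues. The gap was wider in liver (9.61 against 0.212 CPM per kb) than in eWAT (8.55 against 2.16). The 12735 genes of both tables were compared in the edgeR quasi-likelihood test, with TMM size factors and Benjamini-Hochberg adjustment. The Igf1r log2 fold change of liver over eWAT was -2.60 ± 0.08 (SE, edgeR adjusted p = 1.42e-24). Between the tissues, 8 of the 9 genes passed this test, where 85.8% of all genes did, so a pass in itself does not set the 9 apart. Of the 8, 3 were higher in liver, against 42.7% of all genes, and 5 were lower, against 43.1%.

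Insr, the insulin receptor, had a range of 112 to 156 CPM in liver (median 134) and of 88.2 to 139 in eWAT (median 122). The ranges overlapped, and the log2 fold change was 0.91 ± 0.07 (edgeR adjusted p = 1.41e-14). Irs2, the adaptor that carries the signal from the insulin receptor to PI3 kinase, had 16.9 to 47.9 CPM in liver (median 22.7) and 78.1 to 207 in eWAT (median 137). Here the tissues did not overlap, and the log2 fold change was -1.70 ± 0.13 (edgeR adjusted p = 8.46e-14). Akt2, the AKT kinase that drives insulin-dependent glucose uptake in fat, had 106 to 130 CPM in liver (median 119) and 323 to 584 in eWAT (median 450). It was likewise clear of overlap, at -1.20 ± 0.07 (edgeR adjusted p = 2.51e-16).

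Nras, a small GTPase that passes receptor signals to the MAP kinases, was also apart, with 19.3 to 28.8 CPM in liver, against 49.7 to 76.7 in eWAT (-0.70 ± 0.06). Ranges that did not overlap between the tissues were thus seen for 4 of the 9 genes, Igf1r, Irs2, Akt2 and Nras, against 57.4% of all genes. Igf2bp2, an RNA-binding protein that stabilises growth messages, passed with overlapping ranges of 1.67 to 5.07 CPM in liver, against 3.92 to 15.4 in eWAT (-0.64 ± 0.18, edgeR adjusted p = 0.00143). Tgfbr1, the kinase receptor of TGF-beta, passed in the other direction (0.61 ± 0.08), as did Ccnd1, the cyclin that starts the cell cycle in G1 (0.39 ± 0.14, edgeR adjusted p = 0.0121). Myc, the growth transcription factor, had 2.13 to 25.0 CPM in liver, against 10.2 to 24.7 in eWAT, and did not pass (-0.32 ± 0.26, edgeR adjusted p = 0.245).

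These differences depend on how the tissues are scaled, since with library totals alone the median of all genes lay at -0.73 on the log2 scale instead of 0.0047. On totals Tgfbr1 turned to -0.13 (edgeR adjusted p = 0.132) and Ccnd1 to -0.34 (adjusted p = 0.026), and Myc passed at -1.06. Of the 9, 1 was then called higher in liver and 7 lower, and of all genes 2476 (19.4%) were called higher and 9138 (71.8%) lower, against 5438 and 5483 with TMM. The change of scaling moved each of the 9 genes by about as much as the median gene. Places relative to that median are therefore the same under both scalings by construction, and their agreement is no support. Relative to the median gene, 3 genes, Insr, Tgfbr1 and Ccnd1, lay higher in liver. Igf1r, Irs2, Akt2, Nras, Igf2bp2 and Myc lay lower, though Myc did not pass with TMM. With totals Insr was at 0.17 ± 0.06 and was the only one of the 9 genes whose log2 fold change was above 0.

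**Figure D2:**
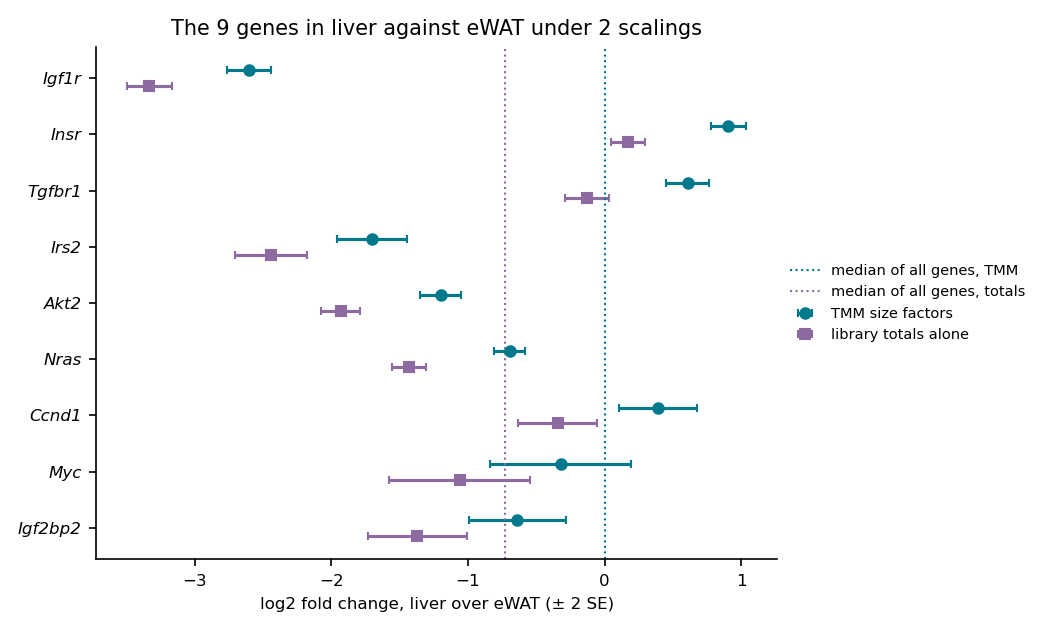
Log2 fold change of each gene, liver over eWAT (points, with bars of 2 SE), under TMM size factors (circles) and library totals alone (squares); dotted lines mark the median of all 12735 genes under each. Igf1r is lowest at -2.60 with TMM and Insr highest at 0.91, and Tgfbr1 and Ccnd1 change sign with totals.

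None of the 9 genes passed the test between any of the arms in either tissue, and no gene at all did. In the liver comparisons, 0 of 9 were called for HF against LF, for HFLF against LF and for HFLF against HF, where the share of all genes called by edgeR was 0% each time. In eWAT, too, 0 of 9 were called for HF against LF, for HFLF against LF and for HFLF against HF, against 0% of all genes. DESeq2 called 1, 11 and 0 genes in the 3 liver comparisons and 12, 69 and 52 in the 3 eWAT comparisons, none of them among the 9, and limma voom called 0 in each. Without eWAT LF 5, edgeR called 13 genes for HFLF against LF in eWAT, again none of the 9. At an unadjusted edgeR p under 0.05, the counts among the 9 genes for HF against LF, HFLF against LF and HFLF against HF were 0, 2 and 0 in liver, where 3.6%, 5.47% and 1.86% of all genes had such a p. In eWAT they were 0, 2 and 2, where 7.04%, 10.8% and 9.3% of all genes did. The arms' CPM ranges overlapped for all 9 genes in each of the 6 comparisons. For HF against LF, HFLF against LF and HFLF against HF, the share of all genes whose ranges did not overlap was 1.4%, 1.18% and 0.146% in liver and 1.03%, 1.22% and 0.669% in eWAT. The comparisons of HF with LF and of HFLF with LF share their LF animals.

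**Figure D3:**
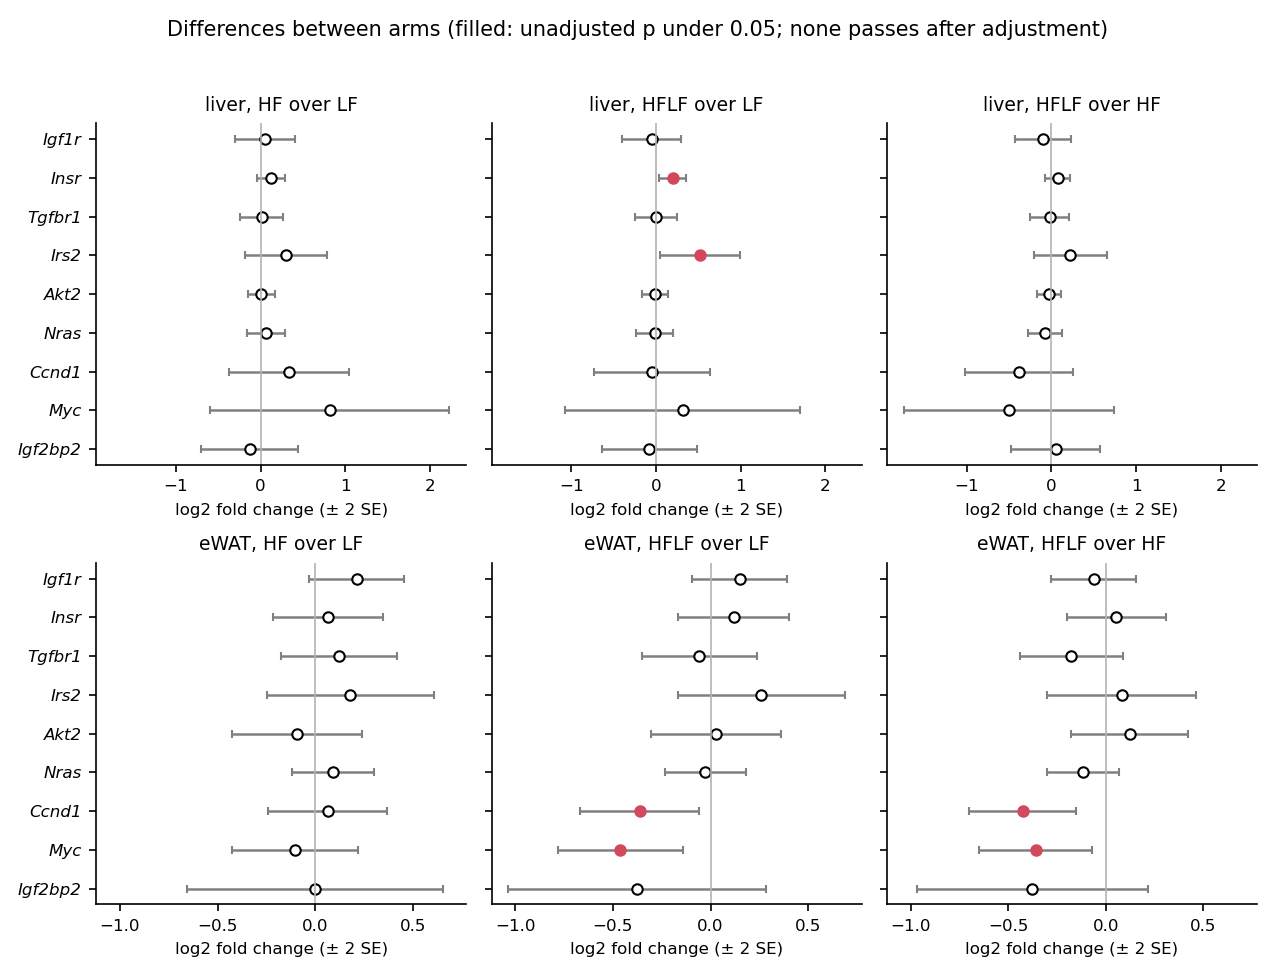
Log2 fold change between arms (points) with bars of 2 SE for each gene, in liver (top) and eWAT (bottom), for HF over LF, HFLF over LF and HFLF over HF. Filled points have an unadjusted edgeR p under 0.05: Insr and Irs2 in liver for HFLF over LF, and Ccnd1 and Myc in eWAT for HFLF over LF and over HF; bars are widest for Myc in liver.

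Among the receptors, Insr showed a small difference in liver. It had a lowest, median and highest value of 130, 137 and 156 CPM in the 6 HFLF livers, 135, 118, 138, 131 and 132 in the HF livers, and 116, 112, 136 and 128 in the LF livers. All 6 HFLF livers lay above the LF mean of 123 CPM and 4 lay above the highest LF liver, but the ranges overlapped. The log2 fold change of HFLF over LF was 0.20 ± 0.08 (SE), a ratio of 1.15, with an edgeR unadjusted p = 0.0235 and an adjusted p = 0.862. For HF over LF it was 0.12 ± 0.08 (adjusted p = 1.00), with 0.068 without LF 2 and 0.174 without LF 3. In eWAT Insr averaged 118 ± 17.7 CPM in HFLF and 120 ± 12.4 in HF, against 112 ± 24.9 in LF (SD), with log2 fold changes of 0.12 ± 0.14 for HFLF over LF and 0.06 ± 0.14 for HF over LF.

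Igf1r differed by no more than its error in liver, with 3.45 ± 0.337 CPM in HFLF, 3.65 ± 0.287 in HF and 3.59 ± 1.02 in LF. In eWAT it had 28.1, 35.7 and 45.0 CPM as lowest, median and highest value in HFLF, 35.6, 38.6 and 44.5 in HF, and 35.3, 28.3, 39.0 and 29.4 in the LF fat pads. All 6 HF fat pads lay above the LF mean of 33.0 CPM, and 3 lay above the highest LF value. The log2 fold change of HF over LF was 0.21 ± 0.12 (edgeR adjusted p = 0.689). Tgfbr1 was level in liver, at 26.1 ± 3.32 CPM in HFLF, 26.1 ± 4.40 in HF and 26.5 ± 2.27 in LF. The intervals of 2 SE about its 3 liver log2 fold changes lay between -0.25 and 0.27. In eWAT it averaged 26.4 ± 2.0 CPM in HFLF and 31.5 ± 5.60 in HF, against 28.6 ± 7.70 in LF, and all 6 HFLF fat pads lay below the HF mean (-0.18 ± 0.13, edgeR adjusted p = 0.703). Without HF 2, one of the fat pads high in testis markers, it was -0.11.

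Downstream of the insulin receptor, Irs2 was uneven in liver. The 6 HFLF livers ran from 19.8 to 47.9 CPM with a median of 22.4. It had 27.2, 25.5, 22.3, 21.4 and 27.5 CPM in the HF livers and 16.9, 22.7, 20.5 and 22.7 in the LF livers. Within HFLF, animals 4 (47.9) and 6 (42.5) stood far above the other 4 livers, which lay between 19.8 and 23.9 and so within or near the LF range. The log2 fold change of HFLF over LF was 0.52 ± 0.23, with an edgeR unadjusted p = 0.0413 and an adjusted p = 0.868. Without HFLF 4 it was 0.33. For HF over LF the log2 fold change was 0.30 ± 0.24, all 5 HF livers lying above the LF mean of 20.7 CPM. In eWAT Irs2 averaged 142 ± 34.2 CPM in HFLF and 142 ± 32.1 in HF, against 122 ± 31.4 in LF, with a highest value of 207 in HFLF 2 and a lowest of 78.1 in LF 3.

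Akt2 was the steadiest of the 9 in liver, at 116 ± 9.61 CPM in HFLF, 117 ± 6.28 in HF and 119 ± 4.31 in LF, with all 15 livers between 106 and 130. Its 3 liver log2 fold changes lay between -0.027 and 0.0098, and intervals of 2 SE reached from -0.17 to 0.17. In eWAT it averaged 452 ± 89.8 CPM in HFLF and 438 ± 75.6 in HF, against 456 ± 63.1 in LF. The 323 to 584 CPM seen within HFLF covered the whole range of the other arms. Nras was close to level in liver, with 22.5 ± 2.58 CPM in HFLF, 23.5 ± 3.33 in HF and 23.1 ± 1.81 in LF. In eWAT Nras averaged 58.6 ± 7.90 CPM in HFLF and 66.9 ± 7.34 in HF, against 61.6 ± 7.98 in LF, and HFLF over HF was -0.12 ± 0.09 (edgeR adjusted p = 0.720), and -0.18 without HFLF 1.

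**Figure D4:**
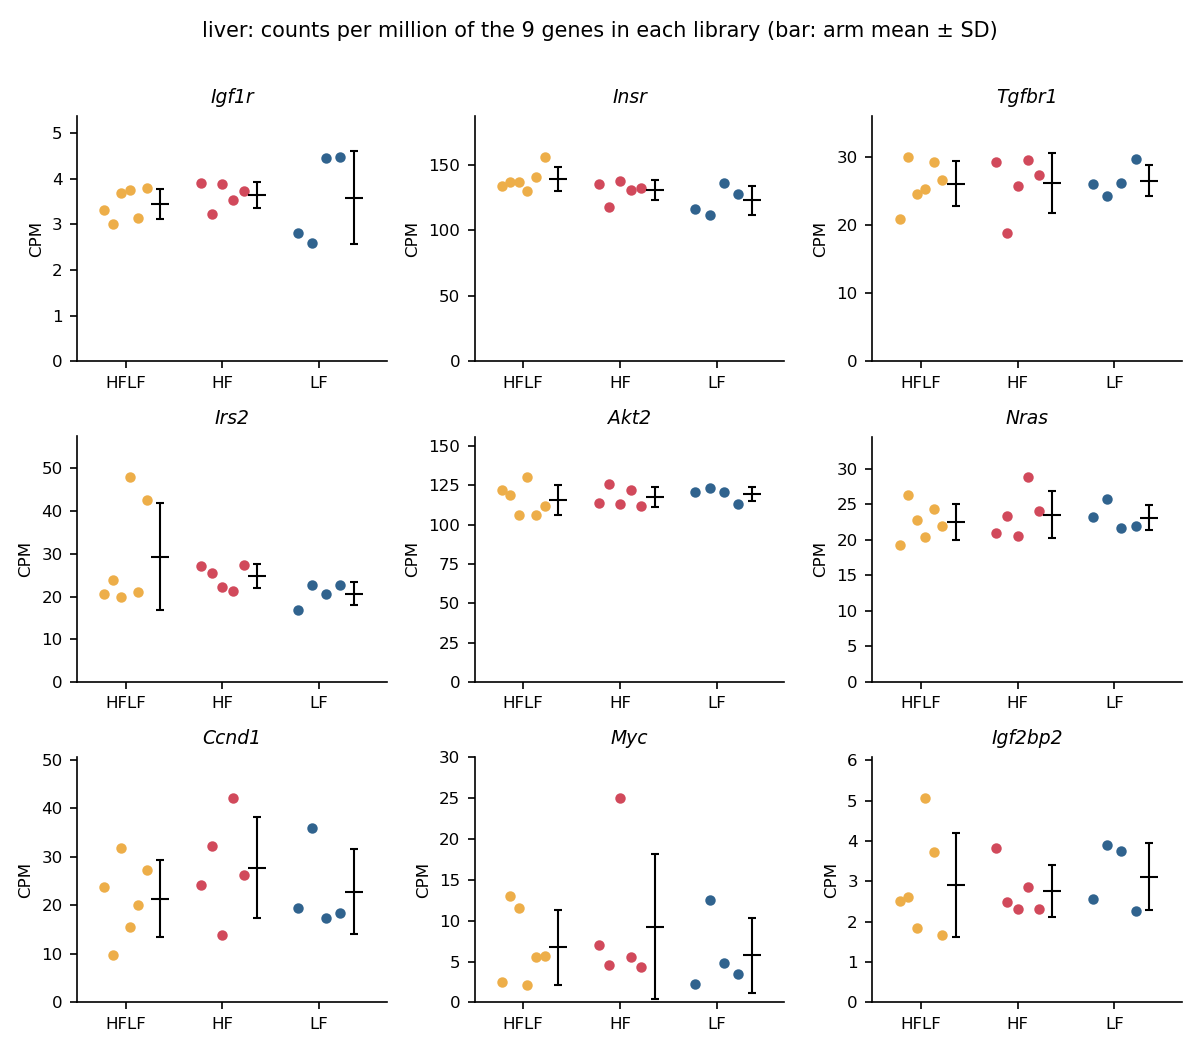
CPM of the 9 genes in each liver library by arm (points), with the arm mean ± SD beside them (bars); each axis starts at 0. Akt2 and Insr are tight in every arm, Irs2 has 2 high HFLF livers (47.9 and 42.5 CPM), and Myc has 1 high HF liver (25.0 CPM).

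The pair that acts on cell division, Ccnd1 and Myc, had lower means in HFLF fat pads than in either other arm. Ccnd1 in eWAT had 19.2, 23.9 and 31.8 CPM as lowest, median and highest value in HFLF, 30, 35.4 and 37.8 in HF, and 43.8, 24.9, 30.2 and 32.7 in the LF fat pads. Of the 6 HFLF fat pads, 4 lay below all HF ones and 3 below all LF ones, and HFLF 1 (30.8) and HFLF 4 (31.8) overlapped with both arms. The log2 fold change of HFLF over HF was -0.43 ± 0.14 (edgeR unadjusted p = 0.00613, adjusted p = 0.428). Over LF it was -0.36 ± 0.15 (unadjusted p = 0.0286, adjusted p = 0.398), and -0.22 without LF 2, the highest LF fat pad, as well as without the 3 fat pads high in B cell markers.

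Myc in eWAT had 10.2, 11.8 and 18.5 CPM as lowest, median and highest value in HFLF, 15.9, 16.5 and 18.0 in HF, and 17.6, 24.7, 12.5 and 16.4 in the LF fat pads. The HF fat pads lay close together, and 5 of the 6 HFLF fat pads lay below every fat pad of HF and of LF. The exception was HFLF 4, above every HF value. The log2 fold change of HFLF over LF was -0.46 ± 0.16 (edgeR unadjusted p = 0.0105, adjusted p = 0.303), and over HF it was -0.36 ± 0.14 (unadjusted p = 0.0237, adjusted p = 0.482). Without LF 3, Myc in HFLF over LF was at -0.28, and without the 4 fat pads high in testis markers, which leaves LF 2 and LF 5, at -0.22. All 5 macrophage markers were measured in each fat pad, none at 0, and their sum was 413 to 643 CPM in HFLF, 591 to 1008 in HF and 634 to 1037 in LF. B cell markers (5 of 5, none at 0) summed to 7.14 to 13.7 CPM in HFLF, 8.05 to 151 in HF and 8.16 to 377 in LF. Testis markers (5 of 5, each at 0 in 1 to 7 fat pads) summed to 0.197 to 1.19 CPM in HFLF, 0.0894 to 116 in HF and 0.0707 to 23.6 in LF. Their part in the Ccnd1 and Myc values was not tested.

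**Figure D5:**
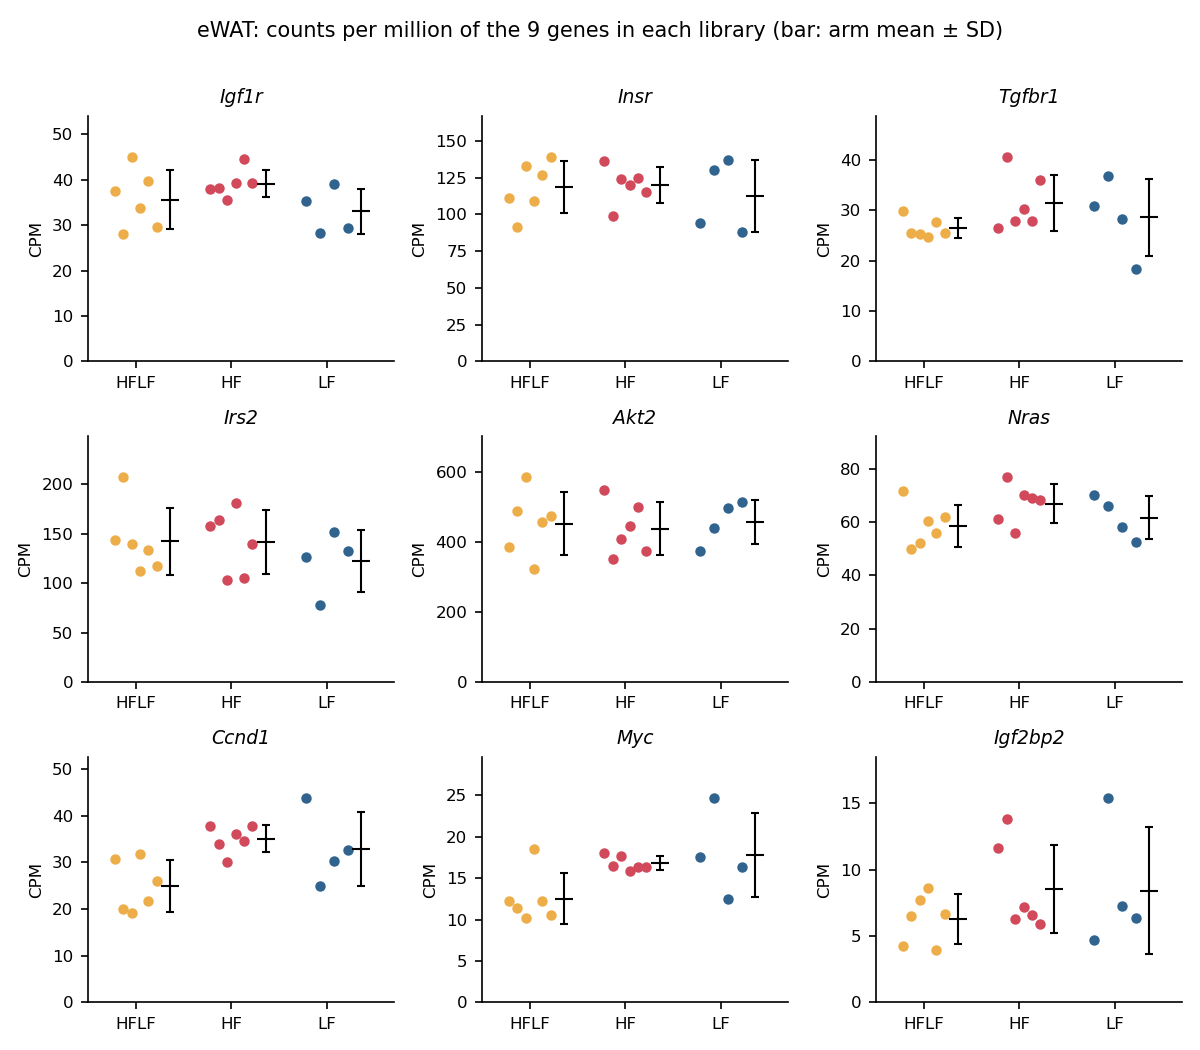
CPM of the 9 genes in each eWAT library by arm (points), with the arm mean ± SD beside them (bars); each axis starts at 0. For Myc, 5 HFLF fat pads between 10.2 and 12.3 CPM lie below all HF and LF ones and HFLF 4 lies at 18.5; Ccnd1 shows the same tilt with more overlap.

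In liver, where neither gene gave an unadjusted p under 0.05, Ccnd1 and Myc varied widely between animals of one arm. Ccnd1 had 9.81 to 31.8 CPM in HFLF with a median of 21.9, 24.2, 32.3, 13.9, 42.1 and 26.3 in the HF livers, and 19.4, 35.9, 17.4 and 18.4 in the LF livers. Myc had 2.13 to 13 CPM in HFLF with a median of 5.62, 6.97, 4.60, 25.0, 5.50 and 4.33 in the HF livers, and 2.30, 12.5, 4.77 and 3.51 in the LF livers. The highest Myc value, in HF 3, stood beside one of the lowest Ccnd1 values, but over all 15 livers the Pearson r of the 2 genes was only -0.0839. The liver Myc log2 fold change of HF over LF, 0.82 ± 0.71, hung on single animals, at -0.02 without HF 3 and 1.45 without LF 2. The spread within arms, as an SD of log2 CPM, was 1.03 for Myc, 0.57 for Ccnd1 and 0.39 for Irs2, larger than that of 99.1%, 97.5% and 93.6% of the genes within 1.5 times of their mean CPM. Akt2 (0.0921), Insr (0.101) and Igf1r (0.228) were at the quiet end, with a smaller SD in only 8.57%, 13.8% and 10.9% of such genes.

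Igf2bp2 was low in both tissues, with 19 to 59 counts a library in liver. It averaged 2.91 ± 1.28 CPM in HFLF, 2.76 ± 0.641 in HF and 3.12 ± 0.825 in LF livers. In eWAT it had 3.92, 6.61 and 8.61 CPM as lowest, median and highest value in HFLF, 5.91, 6.87 and 13.8 in HF, and 4.67, 15.4, 7.28 and 6.32 in the LF fat pads. HF 1, HF 2 and LF 3 stood above the rest, and HF 2 and LF 3 are among the fat pads high in testis markers. The log2 fold change of HFLF over LF was -0.38 ± 0.33, with 0.0603 without LF 3 and -0.592 without LF 2. That of HFLF over HF was -0.38 ± 0.30, with -0.21 without HF 2 and -0.482 without HFLF 4. HF over LF was at 0.00076 ± 0.33. A difference of the order of 0.6 on the log2 scale, or a larger one, could thus have been missed for this gene at this depth and spread.

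No test of the 9 genes as a group was run, and their fold changes are given as counts and medians. Their median log2 fold change in liver was 0.06 for HF over LF (8 positive, 1 negative), -0.01 for HFLF over LF (3 and 6) and -0.03 for HFLF over HF (3 and 6), with medians of all genes between -0.0021 and 0.0024. In eWAT it was 0.06 for HF over LF (7 positive, 2 negative), -0.03 for HFLF over LF (4 and 5) and -0.12 for HFLF over HF (3 and 6), with medians of all genes between -0.0042 and 0.0094. Whether an arm difference differs between the tissues was tested directly as an interaction in edgeR. In these interaction tests, 0 of 27 values for the 9 genes passed, against 0% of all genes in each (smallest unadjusted p = 0.176, smallest adjusted p = 0.924). The largest was Myc in HF over LF, where the liver minus eWAT difference was 0.92 ± 0.66. So the lower Ccnd1 and Myc means in HFLF fat pads were not shown to differ from the liver values.

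In the lists of genes around the 9, which leave the 9 out, 0 genes passed in each arm comparison. Of the 35 other genes of the path from the insulin receptor to AKT and mTOR, 34 were measured in liver and 35 in eWAT. Their median log2 fold change for HF over LF, HFLF over LF and HFLF over HF was 0.007, 0.08 and 0.0044 in liver, and -0.04, 0.03 and 0.06 in eWAT. In liver the smallest unadjusted p for HFLF over LF belonged to Eif4ebp1, the repressor of translation that mTOR switches off, at 52.5 ± 3.46 CPM in HFLF and 62.8 ± 6.4 in LF (-0.24 ± 0.08, edgeR adjusted p = 0.858). In eWAT it belonged to Ptpn1, the phosphatase that turns the insulin receptor off, at 65.7 ± 3.81 CPM in HFLF and 78.9 ± 7.41 in LF (-0.22 ± 0.07, edgeR adjusted p = 0.282). Between liver and eWAT, 10 of 34 were called higher in liver and 19 lower by edgeR with TMM factors, with a median of -0.23, where 42.7% of all genes were higher and 43.1% lower. With library totals, which set the median of all genes at -0.73, the counts were 3 and 29, where 19.4% of all genes were higher and 71.8% lower.

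Of 11 IGF ligands and binding proteins, 10 were measured in each tissue, Igf2 not in liver and Igfbp1 not in eWAT. In eWAT 4 of the 10 had an unadjusted p under 0.05 for HF over LF, all with higher means in HF, where 7.04% of all genes had such a p and 2.82% had it with a higher mean in HF. The median of the list was 0.28, against -0.0042 for all genes. All 5 mesothelium markers were measured in each fat pad, none at 0, and their sum was 41.1 to 496 CPM in HF (median 268) and 96.7 to 213 in LF (median 123). Their part in these values was not tested. Igfbp2, a carrier of IGFs, had the smallest p, at 11.4 ± 10.7 CPM in HF and 2.21 ± 0.485 in LF (2.34 ± 0.77, edgeR adjusted p = 0.689), an SD nearly as large as its mean. For TGF-beta signalling (15 genes measured in each tissue besides Tgfbr1), all 15 were lower in liver than in eWAT by edgeR under both scalings, with a median of -1.64 with TMM, where 43.1% of all genes were lower with TMM and 71.8% with totals, while Tgfbr1 itself lay at 0.61 with TMM and -0.13 with totals. Between arms in eWAT, 13 of the 15 had a positive log2 fold change for HF over LF (median 0.24), 13 for HFLF over LF (median 0.12) and 3 for HFLF over HF (median -0.075), with medians of all genes between -0.0042 and 0.0094. The mesothelium markers, at 5.98 to 309 CPM in HFLF (median 162), are given above for the other arms, and their part here was not tested either. Against the sign of most of its list in HFLF over LF eWAT, the ligand Tgfb1 stood at 54.2 ± 9.30 CPM in HFLF and 75.0 ± 16 in LF (-0.42 ± 0.14, edgeR adjusted p = 0.286). The 17 other genes of RAS to MAPK signalling had medians between -0.00037 and 0.02 in the 6 arm comparisons. Among the 14 other G1 cyclins and MYC partners in eWAT, 3 had an unadjusted p under 0.05 in HFLF over LF (1 higher, 2 lower) and 3 in HFLF over HF (1 higher, 2 lower), where 10.8% and 9.3% of all genes had such a p. Cdk4, the kinase partner of cyclin D1, was at 53.5 ± 5.66 CPM in HFLF and 65.1 ± 5.86 in LF (-0.24 ± 0.08, edgeR adjusted p = 0.300). The cyclin gene Ccnd2 was at 360 ± 45.3 CPM in HFLF and 295 ± 35.3 in HF (0.37 ± 0.13, edgeR adjusted p = 0.440), against the direction of Ccnd1.

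Other genes widely described as let-7 targets numbered 31 on the list, of which 25 were measured in liver and 26 in eWAT. The embryonic targets Hmga2, Lin28a, Lin28b, Trim71 and Igf2bp1 were in neither table. For HF over LF, HFLF over LF and HFLF over HF, their median log2 fold change was 0.01, -0.03 and -0.04 in liver and -0.01, 0.04 and -0.06 in eWAT. Across all measured genes with an annotated 3′ UTR, those with the 8-letter match (443 in liver, 503 in eWAT) had medians of 0.01, 0.0094 and 0.01 in liver and 0.03, 0.04 and 0.01 in eWAT for the same comparisons. Genes with no match of any of the 3 kinds (10180 and 11561) had -0.0028, -0.0062 and -0.0028 in liver and -0.01, 0.0062 and 0.0029 in eWAT. The medians of the genes with the 8-letter match lay higher by at most 0.04. Genes with the 7 letters but not the 8 (850 in liver, 941 in eWAT) had 4.5e-05, 0.0077 and 0.0095 in liver. In eWAT they had -0.0019, 0.014 and -0.0069, the last below the 0.0029 of unmatched genes. The 8-letter and unmatched sets also differ in 3′ UTR length, with medians of 2518 against 983 bases in liver. None of these differences was tested.

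Of the let-7 host transcripts on the list, Mir99ahg, which carries let-7c, and Lncppara, listed as Mirlet7bhg, were measured in both tissues. Mir99ahg had 3.24 ± 0.841 CPM in HFLF, 3.96 ± 0.851 in HF and 4.52 ± 0.942 in LF livers. In fat pads it had 11.8 ± 1.04 CPM in HFLF, 13.4 ± 2.75 in HF and 12.6 ± 4.55 in LF. Lncppara averaged 0.932, 1.08 and 1.34 CPM in HFLF, HF and LF livers, and 6.59, 6.47 and 6.35 in the fat pads. Together with the let-7 tailing enzymes Tut4 and Tut7, the nuclease Dis3l2 and the wider host genes, 7 of the 21 listed genes were measured and 0 passed between arms. The nearest in eWAT was Tut4, which adds uridines to the let-7 precursor, at 20 ± 1.14 CPM in HFLF and 23.6 ± 3.44 in LF (-0.19 ± 0.09, edgeR adjusted p = 0.446). Host transcripts do not measure mature let-7.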

How the data were processed

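The members and the gene lists were chosen with earlier results of these data known. Whole-number counts per gene, deposited by the authors after a filter on low CPM, were used for 15 liver and 16 eWAT libraries. The submitters' processing notes name STAR as aligner and GRCm38.p6 as genome. No source used here gives the counter, annotation release or strand setting. The deposited RPKM tables were not used, since the gene length they imply differs between libraries. Gene symbols, exon lengths and 3′ UTRs came from GENCODE M21 (13667 liver and 15974 eWAT identifiers had a symbol), and microRNA sequences from RefSeq. Symbols renamed since the lists were written (Ctgf as Ccn2, Zcchc11 as Tut4, Zcchc6 as Tut7, Mirlet7bhg as Lncppara) were matched through RefSeq synonyms.

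Each tissue was fitted in edgeR 4.0.16 (R 4.3.3) with TMM factors, robust quasi-likelihood, arm as the factor and nothing else, with 12 (liver) and 13 (eWAT) residual degrees of freedom. The filter filterByExpr removed 0 genes, so all 9 members were tested. P-values were adjusted by Benjamini-Hochberg over all genes of the table, with a threshold of 0.05. Tissues were compared in 1 fit of the 12735 shared genes, with arm as a term. That fit and the interaction fit treated all 31 libraries as independent. For 14 pairs of arm and number both tissues were sequenced, and no label says whether equal numbers are the same animal. If they are, the p-values between tissues leave that pairing out, and the replicate block is the alternative that includes it. CPM is count per library total, and values are means ± SD, with log2 fold changes ± SE. Alternatives were RLE size factors, library totals, DESeq2 1.42.0, limma 3.58.1 voom, other filters, other sample sets, each library left out in turn and a replicate block. The edgeR, limma voom and DESeq2 fits within a tissue were tried on simulated counts, for HF against LF only. The fits across tissues, the interaction fits and the other alternatives were not. Besides all members, the rule named the gene of each list with the smallest unadjusted p in a comparison. The shifted 7-letter motif was added after the other 2 motifs had been set. No 2 libraries agreed within sampling noise (chi-square per degree of freedom of at least 11.5).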

Additional observations from a re-analysis of the deposited data

Results flagged for a closer look

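Of 54 groups of 4 to 6 libraries (9 genes, 3 arms, 2 tissues), 4 held a library set far from the rest of its arm by Dixon's 95% criterion, where chance gives about 1 in 20. Ccnd1 was at 35.9 CPM in liver LF 2, against 17.4 to 19.4 in the other LF livers. Myc was at 25.0 CPM in liver HF 3, against 4.33 to 6.97 in the other HF livers. Irs2 was at 207 CPM in eWAT HFLF 2, against 112 to 144 in the other HFLF fat pads. Myc was at 18.5 CPM in eWAT HFLF 4, against 10.2 to 12.3 in the other HFLF fat pads. Their causes were not tested.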

How the results depend on the processing

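For the 9 genes, 0 of 1044 values of the arm comparisons under an alternative passed the threshold (smallest edgeR adjusted p = 0.0978, Myc in eWAT HFLF against LF without LF 5). Values without an adjusted p, such as Igf1r, Igf2bp2 and Myc in liver HFLF against LF with DESeq2, count there as not passing. Of the 1044 values, 88 changed sign, most of them from values under 1 SE. The cause was not tested. Over all genes, DESeq2 called 1 (liver HF against LF), 11 (liver HFLF against LF), 12 (eWAT HF against LF), 69 (eWAT HFLF against LF) and 52 (eWAT HFLF against HF), where edgeR called 0. Leaving out 1 library gave 0 to 13 calls for eWAT HFLF against LF, the 13 without LF 5, and 0 for the other comparisons. Whether equal replicate numbers pair the samples was not tested. For equal numbers in different arms, deviations correlated between -0.105 and 0.383 in liver, and between -0.338 and 0.374 in eWAT. For the 14 pairs of the same arm and number in both tissues, they correlated between -0.0717 and 0.137. A replicate block called 1 gene for liver HFLF against LF and 0 in the other arm comparisons.

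Log2 fold changes that changed sign were these. With the replicate block they were, in liver, Tgfbr1 at -0.0299 (HF against LF) and 0.00116 (HFLF against HF), Ccnd1 at 0.00596 (HFLF against LF), and Irs2 at -0.0138 and Igf2bp2 at -0.192 (HFLF against HF). In eWAT HF against LF they were Igf2bp2 at -0.00226 and Ccnd1 at -0.0244. With library totals they were Akt2 at -0.027 and Tgfbr1 at -0.022 (liver HF against LF), Akt2 at -0.0129 (eWAT HFLF against LF), Insr at -0.0199 (eWAT HFLF against HF), Tgfbr1 at -0.127 and Ccnd1 at -0.344 (liver against eWAT), and the interactions of Insr (-0.00635, HF against LF) and Igf1r (0.0472, HFLF against HF). With limma voom they were, in liver, Tgfbr1 at -0.00453 (HF against LF) and Igf2bp2 at -0.0254 (HFLF against HF), and with a replicate block the interaction of Tgfbr1 at -0.00591 (HFLF against LF).

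Without the 4 fat pads high in testis markers, HF against LF in eWAT gave Irs2 at -0.04, Akt2 at 0.108, Tgfbr1 at -0.0841, Ccnd1 at -0.103, Nras at -0.0139 and Myc at 0.165. HFLF against LF gave Igf1r at -0.0109 and Igf2bp2 at 0.106, and HFLF against HF gave Insr at -0.0234 and Akt2 at -0.00136. Without the 3 high in B cell markers, HF against LF gave Insr at -0.0415 and Igf2bp2 at -0.0277, HFLF against LF gave Akt2 at -0.0746 and Nras at 0.0181, and HFLF against HF gave Irs2 at -0.116.

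Leaving out 1 library changed signs within these ranges. In liver HF against LF, Igf1r ran from -0.0744 to 0.167, Akt2 from -0.0254 to 0.0368, Tgfbr1 from -0.0388 to 0.113, Nras from -0.0277 to 0.103 and Myc from -0.0186 to 1.45. In liver HFLF against LF, Igf1r ran from -0.168 to 0.0679, Akt2 from -0.0513 to 0.0135, Igf2bp2 from -0.298 to 0.0396, Tgfbr1 from -0.049 to 0.0514, Ccnd1 from -0.205 to 0.234 and Nras from -0.0644 to 0.0278. In liver HFLF against HF, Akt2 ran from -0.0609 to 0.0105, Igf2bp2 from -0.171 to 0.193, Tgfbr1 from -0.117 to 0.0365, Nras from -0.128 to 0.0128 and Myc from -0.803 to 0.33. In eWAT HF against LF, Insr ran from -0.0231 to 0.182, Igf2bp2 from -0.204 to 0.447, Tgfbr1 from -0.0257 to 0.259, Ccnd1 from -0.0464 to 0.213 and Myc from -0.237 to 0.0873. In eWAT HFLF against LF, Akt2 ran from -0.0747 to 0.113, Igf2bp2 from -0.592 to 0.0603, Tgfbr1 from -0.203 to 0.0711 and Nras from -0.0883 to 0.018, and in HFLF against HF, Insr ran from -0.00598 to 0.112 and Irs2 from -0.0694 to 0.149.

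Between the tissues, the number of the 9 genes called was 8 with RLE size factors, library totals and the replicate block, and 9 with limma voom. With 4 LF animals a tissue, and liver counts as low as 19 for Igf2bp2 and 24 for Igf1r, small differences between arms could not be seen. Differences beyond 2 SE did not pass adjustment over all genes either. An example is Ccnd1 in eWAT HFLF over HF (-0.43 ± 0.14, edgeR adjusted p = 0.428).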

Other observations

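For each gene, the transcript whose log2 CPM followed it most closely over all libraries of a tissue was looked up, as a description with no test, since it is the highest of very many correlations and all points share library depth and tissue makeup. Over the 15 livers, Insr ran closest with Sepsecs (Pearson r = 0.927) and Tgfbr1 with Bmt2 (0.933). Ccnd1 (Nagk, 0.813) and Myc (Chrnb1, 0.815) had the loosest partners there. Over the 16 fat pads, Insr ran closest with Ppp1r9a (0.941), Akt2 with Grhpr (0.938), Igf1r with Lmbr1 (0.934) and Myc with Dio3os (0.912). No gene had the same closest partner in both tissues.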
